A study of Mus musculus with 12 samples.

Results

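Gp1ba, Clec1b and Clec9a are 3 surface receptor genes whose transcripts were lower in blood neutrophils of LPS-treated wild-type mice. They belong to a set of 6 genes, with Itga2b, Pf4 and Ppbp, that was named after platelet transcripts and after the chromosome 6 locus of Clec1b and Clec9a. The rows were found by NCBI Gene ID among the 9374 genes measured. Of the 6 genes, 3 had a row, and Itga2b, Pf4 and Ppbp were not analysed here. The set was chosen from the difference between LPS and saline in WT libraries, so that difference is given below as a description, without a test.

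Neutrophils were isolated from the blood of female mice for RNA sequencing, 16 hours after treatment. The 4 groups had 3 libraries each: KO-LPS (Hmgb1ΔMye mice given 0.5 mg/kg lipopolysaccharide, LPS), KO-Saline (Hmgb1ΔMye mice given saline), WT-LPS (wild-type mice given 0.5 mg/kg LPS) and WT-Saline (wild-type mice given saline). LPS, a component of the outer membrane of bacteria, is sensed by Toll-like receptor 4, and the line's name stands for a deletion of Hmgb1, which encodes a chromatin protein, in myeloid cells. The labels give no Cre driver, strain or age and do not state whether each library was made from its own mouse, so the p-values reflect the spread of these samples alone, which may be technical.

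Platelets catch on to a damaged vessel wall through a complex of glycoproteins that binds von Willebrand factor, and Gp1ba encodes the subunit that does the binding. Clec1b encodes CLEC-2, a C-type lectin-like receptor of platelets for podoplanin that signals through Syk and has also been reported on mouse blood neutrophils. Clec9a encodes DNGR-1, a receptor for exposed actin filaments of dead cells that marks cross-presenting dendritic cells. Itga2b encodes the αIIb chain of the platelet fibrinogen receptor, and Pf4 and Ppbp encode chemokines stored in platelet granules. Clec1b and Clec9a lie side by side in a cluster of C-type lectin-like receptor genes that also holds Clec7a, which encodes the β-glucan receptor Dectin-1.

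Depth was low, with 399702 to 526757 reads per library over the genes listed, and the median gene had a mean of 11.3 reads per library. In CPM (counts scaled to a common library size), 1 read was worth 1.86 to 2.67, and a count of 0 allowed up to 5.58 to 8.0 CPM when 3 reads are taken as its limit. All 12 neutrophil marker genes on the list used were measured, with a summed level of 22339 to 25291 CPM in KO-LPS, 19076 to 19687 in KO-Saline, 23456 to 24015 in WT-LPS and 13444 to 18251 in WT-Saline libraries. Hmgb1 itself had 6, 30 and 16 reads in KO-LPS, 14, 10 and 25 in KO-Saline, 14, 15 and 34 in WT-LPS and 8, 17 and 12 in WT-Saline libraries. The Hmgb1 reads of libraries labelled KO and of WT libraries overlapped, and KO below is a label. One library stood apart. On an axis that puts the mean of WT-Saline at 0 and the mean of WT-LPS at 1, over 9256 genes outside those discussed here, KO-LPS replicate 1 lay at 0.340, the other KO-LPS libraries at 0.873 and 0.869, and KO-Saline libraries at 0.221 to 0.310. The estimates of Gp1ba, Clec1b and Clec9a that rest on KO-LPS libraries are therefore given with and without replicate 1.

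The platelet name was checked against 13 genes that define platelets, of which 4 were measured: Gp1ba, Gp9 (another subunit of the von Willebrand factor receptor), Itgb3 (the β chain of the fibrinogen receptor, also present on other cells) and Clec1b. Their summed level was 244 to 523 CPM in KO-LPS, 692 to 895 in KO-Saline, 180 to 282 in WT-LPS and 537 to 805 in WT-Saline libraries. Gp1ba made up most of that sum. With 9 of the 13 defining genes not analysed here, the 3 measured genes are called by their own names and not as platelet RNA. In bulk RNA, fewer cells of a type and less RNA per cell cannot be told apart.

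The promoters of the 3 genes are shown because Clec1b and Clec9a are neighbours on one strand, while Gp1ba lies on another chromosome. Each is the RefSeq sequence of assembly GRCm38.p6 from 250 bases before to 50 bases after the gene's start, on the plus strand. The regions are chr11:70638872-70639171 for Gp1ba, chr6:129397047-129397346 for Clec1b and chr6:129408612-129408911 for Clec9a. Capitals mark GATA words (the letters GATA with A or T before them and A or G after them, on either strand), which GATA factors of megakaryocytes and other blood cells are known to bind.
Gp1ba: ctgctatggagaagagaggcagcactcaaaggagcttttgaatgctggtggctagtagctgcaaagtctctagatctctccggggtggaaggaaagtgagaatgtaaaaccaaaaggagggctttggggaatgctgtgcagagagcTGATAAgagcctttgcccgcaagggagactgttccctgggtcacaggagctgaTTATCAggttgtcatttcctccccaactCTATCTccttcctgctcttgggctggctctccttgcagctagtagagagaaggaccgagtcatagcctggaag
Clec1b: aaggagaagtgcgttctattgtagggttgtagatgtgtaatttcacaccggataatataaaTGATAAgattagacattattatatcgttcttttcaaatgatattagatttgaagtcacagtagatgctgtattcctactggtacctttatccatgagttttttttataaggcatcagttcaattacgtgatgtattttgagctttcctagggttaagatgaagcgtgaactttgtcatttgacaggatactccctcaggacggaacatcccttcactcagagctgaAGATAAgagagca
Clec9a: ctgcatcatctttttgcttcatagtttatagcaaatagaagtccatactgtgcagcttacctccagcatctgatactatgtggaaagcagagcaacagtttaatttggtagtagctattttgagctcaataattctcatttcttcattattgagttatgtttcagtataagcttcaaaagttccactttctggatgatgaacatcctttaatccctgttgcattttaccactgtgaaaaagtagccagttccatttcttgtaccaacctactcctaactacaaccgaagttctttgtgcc
Gp1ba held 3 GATA words, which began 104, 51 and 23 bases before the start. Clec1b held 2, one 189 bases before the start and the other at base 38 after it, and Clec9a held none. The background was 7484 RefSeq promoters of the same length, 1 for each measured gene that had one. Of these, 19.3% held at least 1 GATA word, 3.38% at least 2 and 0.588% at least 3. Among the other genes of the set, Pf4 held 1 GATA word and Itga2b and Ppbp none. ETS words (AGGAAG or CGGAAG on either strand) stood once in the Gp1ba promoter, apart from its GATA words, and not in those of Clec1b and Clec9a. Of the 7484 background promoters, 56.3% held at least 1. A match describes letters in this window and says nothing of binding.

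Gp1ba was the most abundant of the 3. It is annotated on the plus strand of chromosome 11 (chr11:70639122-70642036, mm10), its exons cover 2718 bases, and no other annotated gene overlaps it. It ranked 402 of the 9374 genes by mean reads, with 201.6 reads per library. It had 435, 212 and 244 CPM in KO-LPS libraries (163, 86 and 114 reads), against 685, 614 and 798 CPM in KO-Saline libraries (261, 283 and 328 reads). In WT mice it had 159, 192 and 243 CPM in LPS libraries (67, 91 and 131 reads), against 470, 685 and 702 CPM in saline libraries (194, 324 and 377 reads). Every LPS library was below every saline library of its own genotype, and KO-LPS replicate 1 was the highest of the 6 LPS libraries.

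Gp1ba fell with LPS in KO libraries, which are outside the contrast it was chosen from. The LPS minus saline estimate from limma, a linear model fitted to the log2 values of all genes, was -1.29 ± 0.26 (SE), with a Benjamini-Hochberg adjusted p of 0.0050. A gene was called when this p was under 0.05. Its mean was 297 ± 120 CPM in KO-LPS and 699 ± 93 CPM in KO-Saline libraries (SD, n = 3 each). Gp1ba was the only called gene of the 3, where 1.35% of all genes were called lower in this comparison. Without KO-LPS replicate 1 the difference was -1.60 ± 0.23 (limma adjusted p = 2.78e-06), while without KO-LPS replicate 2 or replicate 3 the call was lost (-1.09, limma adjusted p = 0.077, and -1.19, limma adjusted p = 0.053). It was also lost without a mean-variance trend (limma adjusted p = 0.167). Markers of other cells were called in the same KO comparison: the B cell gene Cd79a rose (2.17 ± 0.55) and the macrophage gene Apoe fell (-2.60 ± 0.73). Cd79a was the only 1 of 4 B cell genes measured. Of 5 monocyte and macrophage genes measured, Apoe alone passed. The estimates of 3 were below 0, Apoe among them, and those of Ly6c2 (1.19 ± 0.45) and Cd68 (0.94 ± 0.37) were above 0. Of the 12 neutrophil markers, Ngp (2.80 ± 0.55), Mmp8 (1.42 ± 0.34) and Itgam (0.83 ± 0.23) rose and Csf3r fell (-1.24 ± 0.30). The limma adjusted p of the 6 called markers, Cd79a and Apoe included, lay between 0.0046 and 0.0447. The part of these markers in the Gp1ba result was not tested. In WT libraries, where the gene was chosen, the estimate was -1.64 ± 0.26, with means of 198 ± 43 CPM in WT-LPS and 619 ± 130 CPM in WT-Saline libraries (SD, n = 3 each).

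Clec9a had the widest range of the 3 genes on the log2 scale. It is annotated on the plus strand of chromosome 6 (chr6:129408862-129424763, mm10), with 3293 bases of exon. It had 56.0, 4.93 and 4.29 CPM in KO-LPS libraries (21, 2 and 2 reads), against 26.2, 75.9 and 41.3 CPM in KO-Saline libraries (10, 35 and 17 reads). In WT mice it had 0 reads in all 3 LPS libraries, against 67.8, 146 and 143 CPM in saline libraries (28, 69 and 77 reads). The WT groups lay far apart, while the KO groups overlapped through KO-LPS replicate 1, which was above 2 of the 3 KO-Saline libraries.

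In KO libraries the Clec9a estimate was -1.86 ± 0.84 and did not pass (limma adjusted p = 0.25, unadjusted p = 0.036). Without KO-LPS replicate 1 it was -2.96 ± 0.88 and passed (limma adjusted p = 0.022), where 5.5% of all genes were called lower. Pooled over libraries and scaled to library size, the 25 KO-LPS reads against 62 KO-Saline reads gave a ratio of 0.405 (95% exact counting interval 0.244 to 0.654). Without replicate 1 the 4 reads gave 0.093 (0.025 to 0.25). Both intervals leave out the spread between libraries, and 21 of the 25 KO-LPS reads came from replicate 1. With 0 reads in WT-LPS libraries, the WT difference is a bound: with 3 reads per library as the limit of a count of 0, Clec9a was at least 19.5-fold lower in WT-LPS than in WT-Saline libraries.

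Clec1b was near the limit of detection in most libraries. It is annotated on the plus strand of chromosome 6 (chr6:129397297-129409335, mm10), with 5103 bases of exon. It had 24.0, 0 and 0 CPM in KO-LPS libraries (9, 0 and 0 reads), against 15.7, 8.68 and 2.43 CPM in KO-Saline libraries (6, 4 and 1 reads). In WT mice it had 0 reads in all 3 LPS libraries, against 12.1, 27.5 and 26.1 CPM in saline libraries (5, 13 and 14 reads). The WT groups did not overlap, and KO-LPS replicate 1 held all 9 Clec1b reads of the LPS libraries and more than any KO-Saline library.

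In KO libraries the Clec1b estimate was -1.39 ± 1.14 and did not pass (limma adjusted p = 0.58). It did not pass without KO-LPS replicate 1 either (-2.88 ± 1.17, limma adjusted p = 0.11), and the 95% interval with all libraries, -3.73 to 0.94, holds both no difference and a large one. Clec1b was at least 3.58-fold lower in WT-LPS than in WT-Saline libraries, with the same limit of 3 reads per library. All 3 genes had WT-LPS libraries below every WT-Saline library, the property of 14.3% of all genes, and in KO libraries this held for Gp1ba alone, against 6.87% of all genes. The plot of CPM by library shows both patterns.

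**Figure D1:**
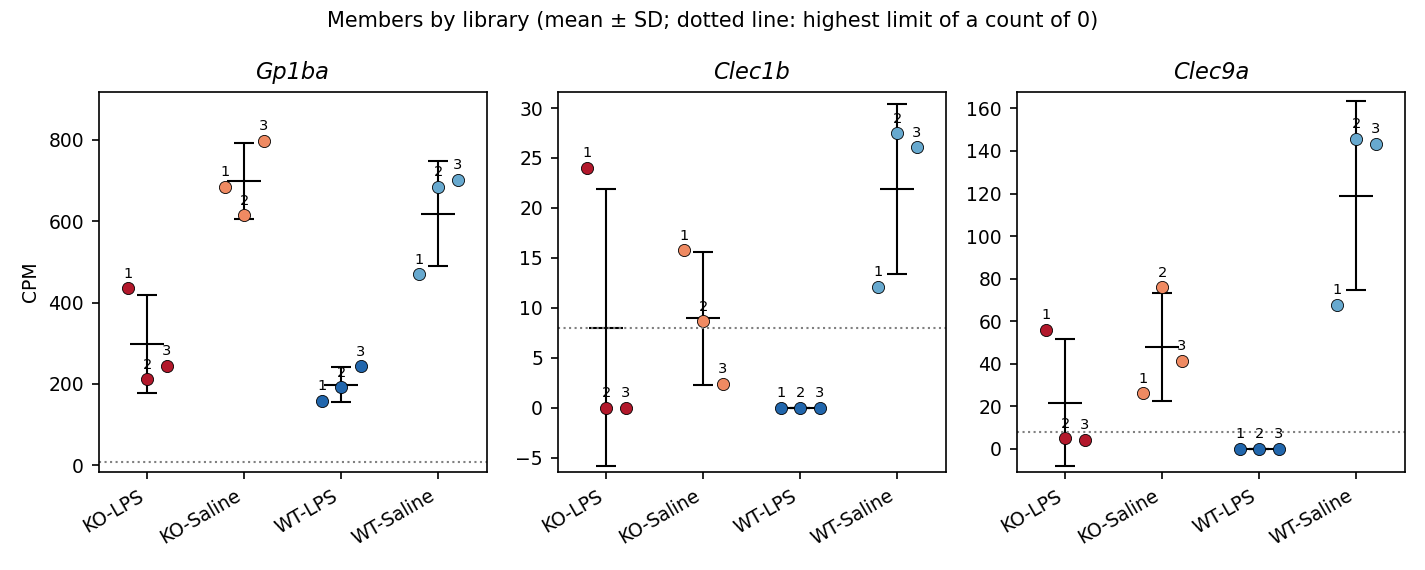
Gp1ba, Clec1b and Clec9a in each library in CPM (linear axes of their own), with replicate numbers beside the points and the group mean ± SD (n = 3) in black. The dotted line is the highest limit of a count of 0, 8.0 CPM. All WT-LPS libraries are at 0 for Clec1b and Clec9a, and KO-LPS replicate 1 is the highest LPS library in each panel.

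Per kilobase of annotated exon the order of levels was Gp1ba, Clec9a and Clec1b in the 3 groups with reads of all 3 genes. Exon lengths were merged over all annotated transcripts. For Clec1b these are 4, of which 1 retains an intron, so its level per kilobase may be understated. In WT-Saline libraries Gp1ba stood at 228 ± 48 CPM per kilobase, Clec9a at 36.1 ± 13.5 and Clec1b at 4.29 ± 1.67 (SD, n = 3), and the ranges of the 3 genes did not overlap. In KO-Saline libraries the levels were 257 ± 34 for Gp1ba, 14.5 ± 7.7 for Clec9a and 1.75 ± 1.31 for Clec1b. In KO-LPS libraries they were 109 ± 44, 6.6 ± 9.0 and 1.57 ± 2.72. Clec9a had more reads than Clec1b in each KO-LPS library (21, 2 and 2 against 9, 0 and 0), over fewer annotated exon bases. Most of these reads came from replicate 1. In WT-LPS libraries Gp1ba stood at 72.9 ± 15.7 and both lectin genes were at 0.

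None of the 3 genes passed in the difference between KO and WT libraries averaged over both treatments. The averaged difference, KO minus WT, was 0.36 ± 0.18 for Gp1ba (limma adjusted p = 0.88), 0.13 ± 0.81 for Clec1b (limma adjusted p = 0.99) and 1.11 ± 0.60 for Clec9a (limma adjusted p = 0.88). The 95% intervals were -0.02 to 0.74 for Gp1ba, -1.52 to 1.78 for Clec1b and -0.11 to 2.33 for Clec9a. Without KO-LPS replicate 1 the averaged differences were 0.21 ± 0.16 for Gp1ba, -0.61 ± 0.78 for Clec1b and 0.56 ± 0.59 for Clec9a (limma adjusted p between 0.829 and 0.932). With 2 reads added in place of 0.5, the Clec9a difference was 0.39 ± 0.44. With all libraries, only Ecm1 was called among all genes (0.0107%, limma adjusted p = 0.0171), and 530 genes had an unadjusted p under 0.05, none of the 3 among them.

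Within each treatment the genotype differences were not tested, since the choice of the genes used the WT libraries. The estimate KO-LPS minus WT-LPS was 0.53 ± 0.26 for Gp1ba, 1.62 ± 1.14 for Clec1b and 3.56 ± 0.84 for Clec9a. Of the KO-LPS reads behind the Clec9a value, 21 of 25 came from replicate 1. Without that library the estimates were 0.22 ± 0.23 for Gp1ba, 0.13 ± 1.17 for Clec1b and 2.45 ± 0.88 for Clec9a. The last value compares 2 and 2 KO-LPS reads with 0 reads in every WT-LPS library, so its size depends on the 0.5 reads added. With all libraries and 2 reads added in place of 0.5, the estimates were 1.02 ± 0.66 for Clec1b and 2.04 ± 0.63 for Clec9a. In saline, KO-Saline minus WT-Saline was 0.19 ± 0.26 for Gp1ba, -1.36 ± 1.14 for Clec1b and -1.34 ± 0.84 for Clec9a. Pooled reads were lower in KO-Saline than in WT-Saline libraries for both lectin genes. The ratios were 0.390 for Clec1b (11 against 32 reads) and 0.405 for Clec9a (62 against 174 reads). They are a description only, since the WT-Saline libraries were among those that chose the genes. For both lectin genes the KO-Saline and WT-Saline libraries overlapped. Clec1b had 15.7 CPM in KO-Saline replicate 1 and 12.1 CPM in WT-Saline replicate 1.

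The annotated spans of Clec1b and Clec9a overlap by 474 bases on the same strand, of which 184 are exonic in both genes. The overlap comes from 1 of 4 annotated Clec1b transcripts, a retained-intron transcript in GENCODE release M21. In RefSeq, Clec1b ends 3448 bases before Clec9a begins. No exon of Gp1ba, Clec1b or Clec9a overlaps an exon on the opposite strand, though the strand setting of the counting is not given in the sources used here. Some of the other genes named here have exons that overlap exons on the opposite strand, so their values are uncertain. They are 2310001H17Rik, 1700101I11Rik, Mink1, Slc25a11, P2ry12, Thbs1, Slc18a2, Fermt3, Zyx, Tln1, Bcl2l13, Cpeb2 and Commd1. Reads from the stretch that Clec1b and Clec9a share could be counted for either lectin gene or for none. Clec1b took 15.2%, 15.9% and 15.4% of the joint reads of both genes in the WT-Saline libraries, 32 of 206 reads in all (15.5%, 95% Clopper-Pearson interval 10.9% to 21.2%). The share was 15.1% in KO-Saline libraries (11 of 73 reads) and 26.5% in KO-LPS libraries (9 of 34 reads, 12.9% to 44.4%), and the intervals overlap. Single KO-Saline libraries had shares of 37.5%, 10.3% and 5.56%, from 16, 39 and 18 joint reads. Whether shared reads set these values was not tested.

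Within 250 kilobases of the lectin genes, 10 genes were measured, in the order Clec2d, 2310001H17Rik, Clec12a, Clec12b, Clec1b, Clec9a, Clec1a, Clec7a, Olr1 and 1700101I11Rik. Clec12a encodes an inhibitory receptor of myeloid cells for uric acid crystals, Clec12b another inhibitory lectin-like receptor, and Clec1a (MelLec) a receptor for fungal melanin. Olr1 encodes LOX-1, the receptor for oxidised low-density lipoprotein. The 6 genes from Clec12a to Clec7a lie on both strands. Each of the 6 had a lower mean CPM in LPS than in saline libraries of both genotypes. The stretch was picked after the values were seen, and the share of all genes with this property was not computed. Clec1b and Clec9a were chosen for their WT difference. In KO libraries the Clec1b means differed little, at 8.0 CPM in KO-LPS and 8.95 CPM in KO-Saline.

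Clec7a had the most reads of the 10 genes over all libraries. It had 357, 4.93 and 36.4 CPM in KO-LPS libraries (134, 2 and 17 reads), against 291, 417 and 375 CPM in KO-Saline libraries (111, 192 and 154 reads). In WT mice it had 19.0, 33.7 and 13 CPM in LPS libraries, against 506, 372 and 400 CPM in saline libraries. KO-LPS replicate 1 lay within the range of the saline libraries, and the other 5 LPS libraries lay at 36.4 CPM or below.

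Clec7a fell with LPS in KO libraries by 3.04 ± 0.72 on the log2 scale (limma adjusted p = 0.015). It was the only call among the 10 genes, where 1.35% of all genes were called lower and 1.99% higher. The call was lost without KO-Saline replicate 2 or 3 and without KO-LPS replicate 2 or 3 (limma adjusted p up to 0.192), and also without a mean-variance trend, with robust moderation and in a fit of KO libraries alone (up to 0.272). Without KO-LPS replicate 1, where 5.5% of all genes were called lower, 6 of the 10 genes fell: Clec7a (-4.56 ± 0.45), Clec12b (-3.95 ± 0.77), Clec1a (-3.42 ± 1.01), Clec9a (-2.96 ± 0.88), Clec12a (-2.54 ± 0.71) and the long non-coding RNA 2310001H17Rik (-1.61 ± 0.44), with limma adjusted p between 1.17e-09 and 0.022. Clec1b, Olr1, Clec2d and 1700101I11Rik did not pass.

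In WT libraries 7 of the 10 genes had LPS libraries below every saline library, and 5 of the 8 without Clec1b and Clec9a, against 14.3% of all genes. In KO libraries the same was true of none of the 10, against 6.87% of all genes. The WT estimates, given as a description, were -4.31 ± 0.72 for Clec7a, -4.24 ± 1.01 for Clec1a, -2.68 ± 0.86 for Clec12b and -1.71 ± 0.68 for Clec12a. Clec2d, at one end, had estimates of 0.09 ± 0.37 in KO and 0.17 ± 0.37 in WT libraries. The median over the 10 genes was -1.74 in KO and -2.20 in WT libraries, beside 0.09 and 0.06 over all genes. Over the 8 genes without Clec1b and Clec9a, which were chosen for their WT difference, it was -1.76 in KO and -1.19 in WT libraries, and -2.50 in KO libraries without KO-LPS replicate 1. Beyond Clec7a, Olr1 and 1700101I11Rik had estimates of -1.62 ± 1.12 and -0.13 ± 0.47 in KO libraries.

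**Figure D2:**
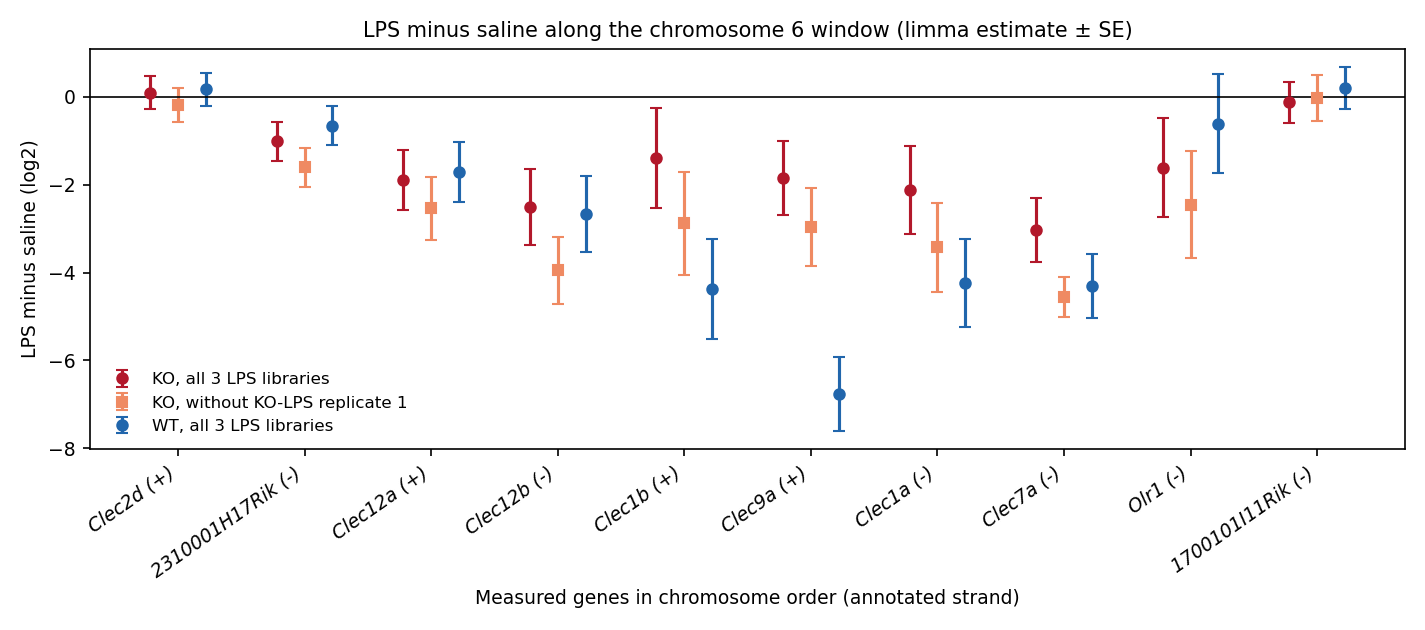
LPS minus saline on the log2 scale (limma estimate ± SE, vertical axis) for the 10 measured genes around Clec1b and Clec9a in chromosome order, with the annotated strand in brackets. KO estimates with all libraries, KO estimates without KO-LPS replicate 1 and WT estimates stand side by side. The genes from Clec12a to Clec7a lie between -1.39 and -6.75 in every series, and Clec2d and 1700101I11Rik lie near 0.

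On chromosome 11, Gp1ba was the only called gene of 17 measured within 250 kilobases in KO libraries (all genes: 1.35% lower, 1.99% higher). Its nearest measured neighbours were Mink1, which encodes a Ste20-type kinase and had 1.67 reads per library, and Slc25a11, which encodes the mitochondrial oxoglutarate carrier. Slc25a11 had 40.9 ± 13.1 CPM in KO-LPS and 34 ± 19 CPM in KO-Saline libraries (SD, n = 3 each), and its estimate was 0.42 ± 0.55 (limma adjusted p = 0.76). The median of the 17 genes was 0.28 in KO libraries. Around the Pf4 and Ppbp genes 4 genes were measured, and the neutrophil-attracting chemokine Cxcl1 rose in KO libraries (3.93 ± 1.02, limma adjusted p = 0.028, with 6.25 reads per library). Cxcl1 had 1, 13 and 21 reads in KO-LPS libraries, against 0 reads in all 3 KO-Saline libraries, so the size of its estimate depends on the 0.5 reads added. The Cxcl1 estimate was 5.03 ± 1.07 without KO-LPS replicate 1, and its call was lost in 7 of 21 alternatives, among them those without KO-LPS replicate 2 or 3.

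Of 85 genes on a list of platelet and megakaryocyte genes, 49 were measured. In KO libraries 1 fell with LPS (Gp1ba), 2 rose and 46 did not pass, where 1.35% of all genes were called lower and 1.99% higher. The median difference of the 49 was 0.25, beside 0.09 over all genes. Without KO-LPS replicate 1, 7 rose and 8 fell, where 5.97% of all genes were called higher and 5.5% lower. In the difference averaged over treatments none of the 49 passed, and 3 had an unadjusted p under 0.05 in limma.

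Among surface receptors and adhesion molecules, 15 of 30 were measured. In KO libraries 7 of the 15 estimates were below 0, and Gp1ba alone passed. In the opposite direction, F2rl2 (0.66 ± 0.27) and P2ry12 (1.76 ± 0.69) had unadjusted p under 0.05 in limma. Gp9 had 37.3, 4.93 and 2.14 CPM in KO-LPS libraries (14, 2 and 1 reads), against 18.4, 28.2 and 36.5 CPM in KO-Saline libraries (7, 13 and 15 reads). In WT mice it had 2.37, 4.22 and 11.1 CPM in LPS libraries (1, 2 and 6 reads), against 41.2, 23.3 and 50.3 CPM in saline libraries (17, 11 and 27 reads). Gp9 therefore had the same arrangement as Clec9a, with WT groups apart and KO-LPS replicate 1 at the saline level. Its KO estimate was -1.61 ± 0.86 (limma adjusted p = 0.34), and -2.65 ± 0.90 without KO-LPS replicate 1 (limma adjusted p = 0.048). Itgb3 had 26.7, 27.1 and 15.0 CPM in KO-LPS and 21, 41.2 and 58.4 CPM in KO-Saline libraries, with overlapping groups in both genotypes and a KO estimate of -0.71 ± 0.60 (limma adjusted p = 0.59), or -0.84 ± 0.67 without KO-LPS replicate 1. Per kilobase, Gp9 stood at 43.4 ± 15.6 CPM and Itgb3 at 4.56 ± 2.18 in WT-Saline libraries (SD, n = 3), both below the 228 of Gp1ba.

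Of 15 granule and secreted products 3 were measured (Thbs1, Srgn and Tgfb1), and none passed in KO libraries, where Srgn and Tgfb1 had unadjusted p under 0.05 in limma. Of 29 cytoskeletal and signalling genes 25 were measured, and 2 rose: Slc18a2, which encodes a vesicular monoamine transporter (1.06 ± 0.23, limma adjusted p = 0.0082), and Fermt3, which encodes the integrin activator kindlin-3 (1.0 ± 0.28, limma adjusted p = 0.039). Both calls were lost without a mean-variance trend and without KO-LPS replicate 2 or 3, and the Fermt3 call in 10 of 21 alternatives in all. Without KO-LPS replicate 1 the estimates were 1.19 ± 0.22 for Slc18a2 and 1.28 ± 0.26 for Fermt3. The 4 list genes with the most reads, which neutrophils use as well, were Zyx (-0.60 ± 0.21), Flna (0.58 ± 0.23), Tln1 (0.27 ± 0.22) and Rac2 (0.28 ± 0.20), and none passed in KO libraries (limma adjusted p between 0.12 and 0.59). Of 11 megakaryocyte transcription factors 6 were measured, and none passed in KO libraries, where 1 of them (Nfe2, 0.77 ± 0.27) had an unadjusted p under 0.05 in limma.

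**Figure D3:**
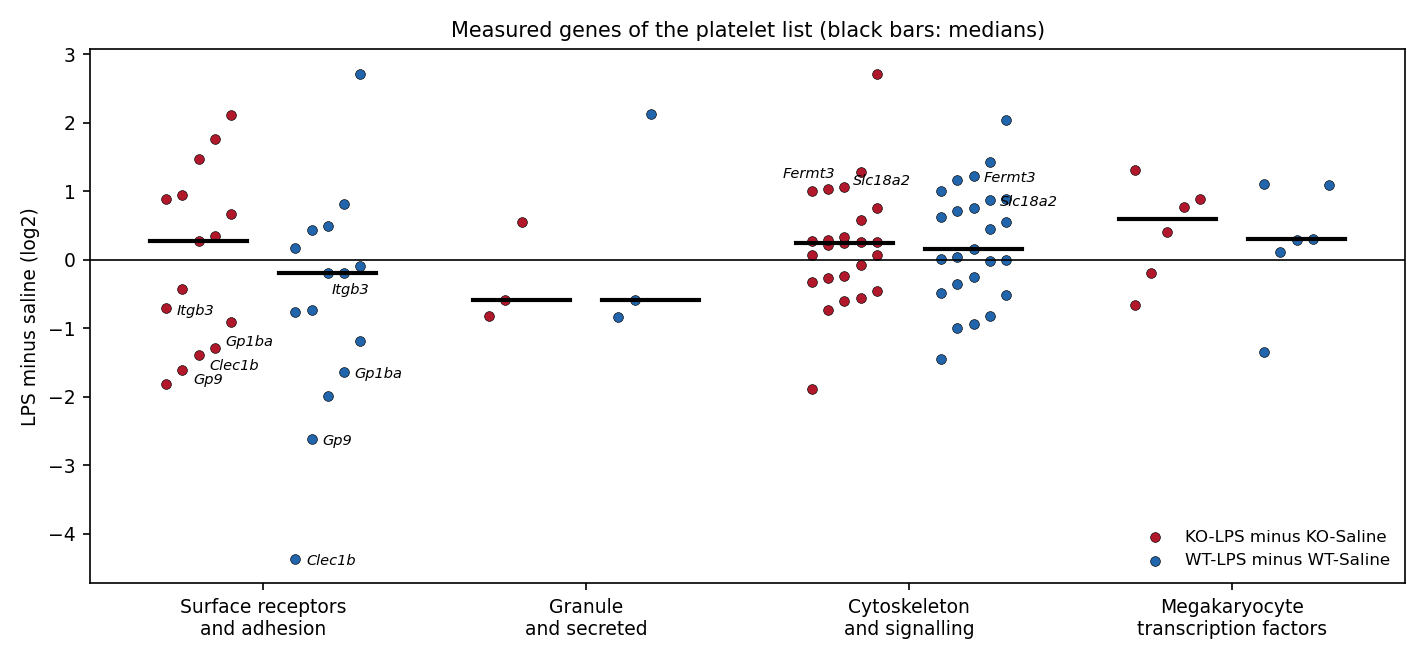
LPS minus saline on the log2 scale (vertical axis) for the 49 measured genes of the platelet list in its 4 sections, in KO (left of each pair) and WT libraries, with a black bar at each median. Gp1ba, Clec1b and Gp9 lie toward the lower end of the surface receptor section in both genotypes, while the section medians are 0.27 in KO and -0.20 in WT libraries.

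Clec9a was also set beside genes of dendritic cells. Of 10 markers of cross-presenting dendritic cells 5 were measured, and their summed level was 289 to 360 CPM in KO-LPS, 331 to 360 in KO-Saline, 259 to 349 in WT-LPS and 404 to 503 in WT-Saline libraries. Most of it was Wdfy4, needed for cross-presentation, which had 91 to 136 reads in KO-LPS, 117 to 121 in KO-Saline, 95 to 168 in WT-LPS and 134 to 175 in WT-Saline libraries. Xcr1, the chemokine receptor that defines these cells, had 9, 2 and 5 reads in KO-LPS, 9, 2 and 0 in KO-Saline, 9, 7 and 3 in WT-LPS and 3, 6 and 17 in WT-Saline libraries. Xcr1, Itgae and Zbtb46 had at most 17 reads in any library. None of the 5, Clec9a included, passed in KO libraries, and 2 had an unadjusted p under 0.05 in limma, Clec9a itself and, in the opposite direction, Itgae (2.53 ± 1.13). Itgae encodes the CD103 integrin chain and had 0, 4 and 10 reads in KO-LPS libraries, against 0 reads in all 3 KO-Saline libraries. Its estimate was 3.72 ± 1.18 without KO-LPS replicate 1 (limma adjusted p = 0.032).

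Of 8 further dendritic cell genes 5 were measured, with a summed level of 12.3 to 107 CPM in KO-LPS, 142 to 187 in KO-Saline, 27.9 to 56.9 in WT-LPS and 164 to 211 in WT-Saline libraries. Itgax, the CD11c integrin chain that neutrophils also carry, made up most of it in saline libraries. Itgax had 28, 2 and 6 reads in KO-LPS libraries, against 37, 46 and 63 in KO-Saline libraries, and 10, 8 and 0 reads in WT-LPS libraries, against 52, 79 and 66 in WT-Saline libraries. Its KO estimate was -2.62 ± 0.83 (limma adjusted p = 0.085), and -3.64 ± 0.78 without KO-LPS replicate 1 (limma adjusted p = 0.00089). The other 4 genes of this list did not share 1 direction. H2-Aa had 0 reads in every LPS library and at most 6 in a saline library, with estimates of -1.54 ± 1.03 in KO and -2.96 ± 1.03 in WT libraries. H2-Ab1, with at most 5 reads in any library, had estimates of 0.39 in KO and 0.60 in WT libraries. The estimates were -1.25 ± 1.12 in KO and 1.12 ± 1.12 in WT libraries for Cd74, and -0.36 ± 0.72 in KO and -1.06 ± 0.72 in WT libraries for Cd209a. None of the 4 passed in KO libraries, and none had an unadjusted p under 0.05 in limma. The part of the dendritic cell genes in the Clec9a result was not tested.

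The genes most like each of the 3 were taken from 4687 genes at or above the median level, by Pearson's r over the 12 libraries. Since the LPS contrast separates the libraries and chose the 3 genes, r rests in part on that contrast and is given as a description. Nearest to Gp1ba were Tmem43, a nuclear envelope protein gene (r = 0.980), the C-type lectin Clec4d (0.976) and Bcl2l13 (0.970). Nearest to Clec1b were Cpeb2 (0.969), the potassium channel Kcnj2 (0.956) and the G protein regulator Rgs2 (0.954). Nearest to Clec9a were the C-type lectin Clec4e, or Mincle (0.964), Vnn3 (0.958) and Commd1 (0.956). In mean CPM, Clec4e stood at 221 in KO-LPS, 333 in KO-Saline, 115 in WT-LPS and 477 in WT-Saline libraries.

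**Figure D4:**
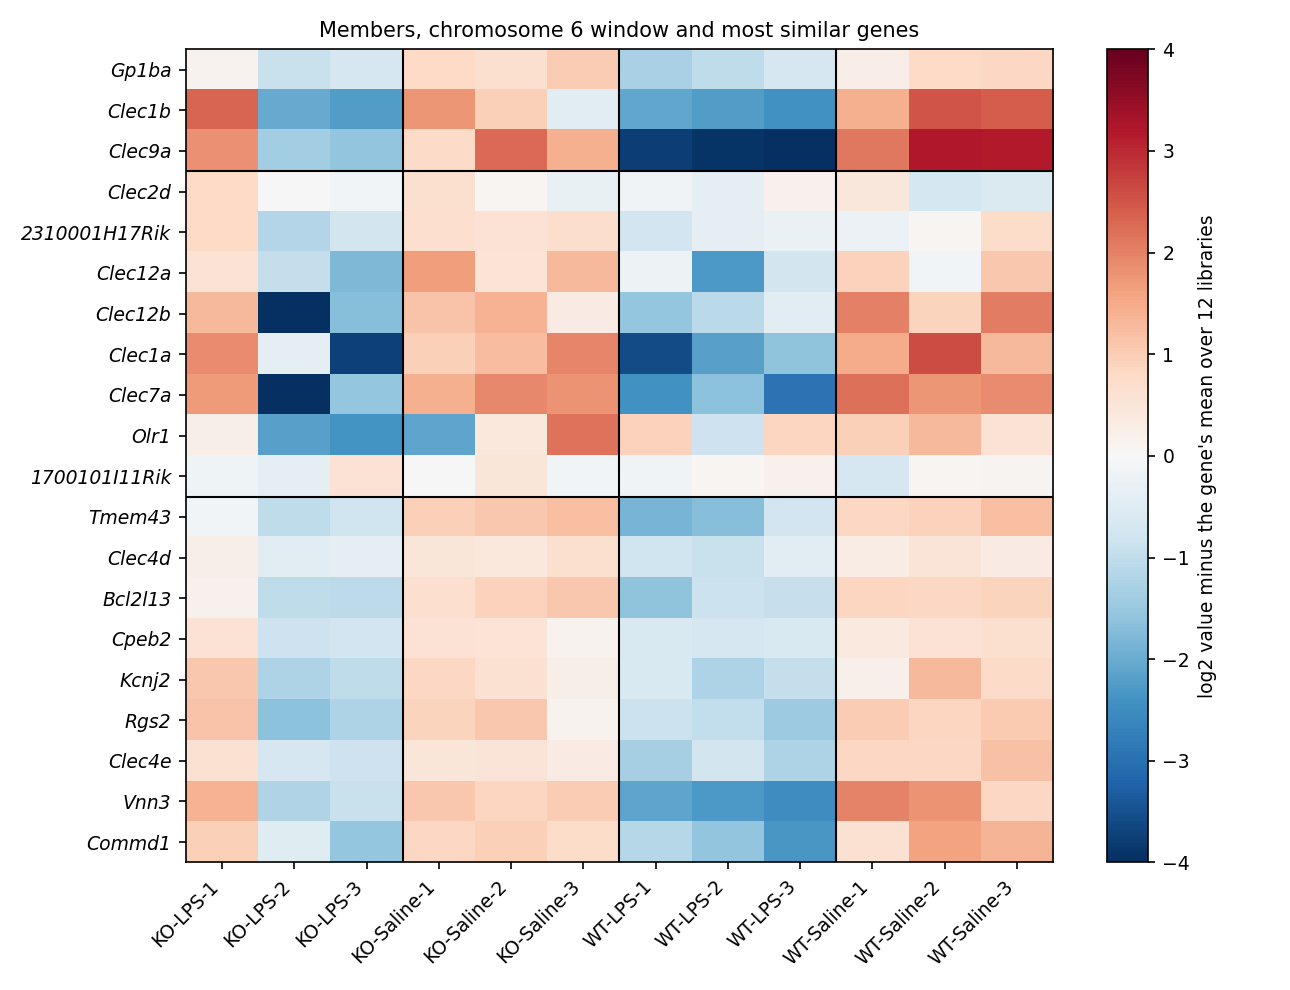
Deposited log2 value minus the gene's mean over the 12 libraries (colour scale from -4 to 4, values beyond it drawn at its ends) for the 3 genes, the other 8 genes of the chromosome 6 window and the 9 most similar genes. For Clec1b, Clec9a, Clec1a and Clec7a, KO-LPS replicate 1 has the colour of the saline libraries, while KO-LPS replicates 2 and 3 are below every saline library.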

How the data were processed

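The authors deposited 1 table of log2 values for 9374 genes by NCBI Gene ID in 12 libraries. They have the form log2 CPM with 0.5 added to the reads, since undoing it gave whole reads, within 0.0001, for 100% of values. Per the labels' protocols, RNA came from a miRNeasy micro kit and libraries from Tecan's Universal Plus Total RNA chemistry with mouse probes. Per the submitters' processing notes the build was mm10. Of the aligner, counter, annotation and strand setting, none is named in the sources used here, so a doubt about strand covers every gene. Each gene listed had 8 or more reads in all and reads in 4 or more libraries, so genes may have passed through their higher groups only.

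Libraries were grouped by their labels. The log2 values were tested with limma 3.58.1 (R 4.3.3): 4 group means over 12 libraries, moderated with a mean-variance trend, two-sided, adjusted over all 9374 genes, none filtered out. Intervals of limma estimates come from its moderated t distribution. Estimates of genes with few reads depend on the 0.5 added. The procedure was tested on simulated data. CPM and pooled reads used the recovered reads, with counting intervals and limits that cover counting error only. Symbols were found for 9372 IDs, and 9298 were matched to GENCODE M21. Coordinates are 1-based.

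The genes and lists were chosen with earlier results of these data known. Beside the 3 genes, the text names listed or neighbouring genes called in KO libraries, the 4 list genes with the most reads, the 3 genes most similar to each, and the nearest measured neighbours. Other genes of the lectin cluster, Gp9, Itgb3, F2rl2 and P2ry12 were chosen after their values were seen. So were the dendritic cell genes and the named markers of other cells and of neutrophils. Alternatives were other moderation, pseudocount, weights, scalings, a filter, fewer libraries and a replicate block.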

Additional observations from a re-analysis of the deposited data

How the results depend on the processing

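The KO count of called genes among Gp1ba, Clec1b and Clec9a was 1, and it was 0 without a mean-variance trend. Leaving out 1 library at a time gave 0 to 2: 0 without KO-LPS replicate 2 or 3, and 2 without KO-LPS replicate 1. The Gp1ba call was the one lost, with limma adjusted p up to 0.167 and an estimate between -1.60 and -1.09 over 21 alternatives. The platelet list count was 3 of 49 in KO libraries, 0 without a mean-variance trend and 5 with voom weights, and ran between 0 and 15 with 1 library left out. For the averaged KO minus WT difference, both counts were 0 in all 20 alternatives. The averaged Clec1b difference was 0.13 and changed sign without WT-Saline replicate 1 (-0.05), KO-Saline replicate 1 (-0.12) or KO-LPS replicate 1 (-0.61), reached 0.53 without KO-LPS replicate 3, and was never called. With 2 reads added in place of 0.5, the WT estimates shrank to -2.58 for Clec1b and -4.80 for Clec9a. Quantile normalization moved the KO median of all genes by -0.10. With the replicate block the KO count stayed 1 and the list count was 4. Same-numbered libraries did not deviate together (18 correlations between -0.07 and 0.04). With so few reads per gene, these correlations cannot exclude a pairing by number or a shared batch. In KO libraries 314 genes were called, against 1076 without KO-LPS replicate 1, 32 without replicate 2, 47 without replicate 3, 16 without a trend and 82 in a fit of KO libraries alone. The cause of these changes was not tested. A filter at the first quartile of levels removed Clec1b, so it has no value there. With 0 Clec1b reads in 5 libraries and 1 to 14 in the others, depth limits what can be said of that gene.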
